A study of Caenorhabditis elegans with 2 samples.

Results

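ChIP-seq, which sequences the DNA recovered with a protein, of eGFP-tagged MEP-1 gave 2404 peaks in Caenorhabditis elegans embryos, and 714 of them lay on an autosome at the promoter of a single protein-coding gene. These 714 peaks are described here. Each had the standard region width of its list, shared by 2183 of the 2404 peaks. Its summit, the position of strongest signal, lay in the promoter window of exactly 1 protein-coding gene, which reached 1000 bp upstream and 200 bp downstream of the gene's annotated 5′ end. The peaks were chosen by position and by the signal value that put them into the thresholded set, so their strength and their place in that window are descriptions and not findings. The study had 1 group and no second condition. It comprised 2 biological replicates of whole mixed-stage embryos, with both sexes pooled, of strain OP70, which carries the unc-119(ed3) III mutation and the wgIs70 insertion of a tagged mep-1. The sequence that drives the transgene is not given in the labels, and whole embryos mix all cell types, so a peak cannot be placed in a cell type.

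MEP-1 carries zinc fingers and acts in a complex with LET-418, the Mi-2 chromatin remodeller of worms, and the histone deacetylase HDA-1. In embryos this complex is known for keeping germline genes silent in somatic cells, and in the germline MEP-1 acts with PIE-1 and the SUMO pathway. Worm genes lie close together, and many pairs are transcribed away from a shared region, so a promoter peak can often belong to either of 2 genes. The single-gene promoters are those where the rule leaves 1 candidate, although it does not show that the peak acts on that gene.

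The DNA under the summits was rich in certain short words, most of them built around CG. Below, 8 windows that reach 50 bp to either side of the summit show how these words were arranged. They come from the RefSeq genome of build ce11, run 5′ to 3′ on the strand of the gene, and overlap no annotated untranslated region. Capitals mark the 10 words of 6 bases, read on both strands, whose share of windows most exceeded that in weaker candidate regions. All promoters means those of 17241 autosomal genes, read at the median summit position. The words were ACGCGC (20.4% of single-gene windows and 2.16% of all promoters), GAGCGC (20.2% and 1.83%), AACGCG (16.7% and 2.08%), GACGCA (19.2% and 2.82%) and GAGAGA (25.21% and 6.59%). They went on with CGCGCA (15.5% and 2.20%), AAACGC (16.8% and 3.93%), CGTCTC (19.5% and 3.32%), GCAAAC (18.3% and 5.57%) and AGCGCG (14.99% and 1.69%). Neighbouring words overlap, so 1 stretch of capitals can hold several. Of the 8 genes, cpsf-1, cbp-1, spas-1, chmp-7 and sqv-8 are among those with the 15 strongest peaks and smr-1 is among the 10 that ranked best in both replicates, while lin-36 and jhdm-1 were added after their values were seen, as the strongest windows with GAGAGA among those on chromosomes II to V that overlap no annotated untranslated region. The same limits left 12 windows of the 15 strongest and 10 best placed peaks. The 6 printed from these were picked to show different words, and the words were absent from 4 of the 12, of which sqv-8 is printed and lias-1, pqn-70 and F08G2.5 are not.
cpsf-1, chrIV:2033139-2033239, minus strand: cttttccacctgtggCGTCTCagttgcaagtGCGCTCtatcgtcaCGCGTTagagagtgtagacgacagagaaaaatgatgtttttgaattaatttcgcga
lin-36, chrIII:8021080-8021180, minus strand: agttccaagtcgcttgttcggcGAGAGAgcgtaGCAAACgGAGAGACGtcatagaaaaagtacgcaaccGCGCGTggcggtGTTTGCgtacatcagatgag
cbp-1, chrIII:9765569-9765669, plus strand: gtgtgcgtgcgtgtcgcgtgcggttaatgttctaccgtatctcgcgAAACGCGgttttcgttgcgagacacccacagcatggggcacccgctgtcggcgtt
smr-1, chrIII:1142946-1143046, plus strand: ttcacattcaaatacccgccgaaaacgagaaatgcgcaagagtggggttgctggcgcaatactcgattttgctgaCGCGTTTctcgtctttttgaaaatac
spas-1, chrV:9175341-9175441, plus strand: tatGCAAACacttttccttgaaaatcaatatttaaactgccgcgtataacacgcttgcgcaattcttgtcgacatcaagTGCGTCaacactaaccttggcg
jhdm-1, chrIII:6453852-6453952, plus strand: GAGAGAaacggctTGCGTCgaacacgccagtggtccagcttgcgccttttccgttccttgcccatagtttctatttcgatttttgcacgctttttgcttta
chmp-7, chrII:9054745-9054845, plus strand: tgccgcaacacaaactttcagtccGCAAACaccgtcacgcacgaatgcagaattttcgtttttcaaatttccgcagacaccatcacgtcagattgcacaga
sqv-8, chrII:9646215-9646315, plus strand: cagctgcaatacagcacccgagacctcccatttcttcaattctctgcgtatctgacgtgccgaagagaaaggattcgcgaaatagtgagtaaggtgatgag
The cpsf-1 window held 3 of the words and the lin-36 window 4 different ones at 6 sites. The cbp-1 and smr-1 windows both carried AAACGC joined with AACGCG. The sqv-8 window held none of the 10.

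At least 1 of the 10 words was present in 550 of the 714 windows, or 77.0% (exact Clopper-Pearson 95% interval 73.8 to 80.1). The same share was 33.3% in 4712 weaker autosomal candidates, which met the same position and width rule but overlapped no peak of the thresholded set. It was 22.5% in all promoters. The other classes of peaks came close to the single-gene windows, with 72.04% of divergent-pair windows and 73.7% of windows outside promoters. Holding at least 1 of the words thus did not set single-gene peaks far apart from other peaks. The words were picked on the single-gene windows, so the size of these gaps is partly built in, and none was tested. Of the leading words, ACGCGC and GAGCGC were also more frequent at promoter peaks than at other peaks. ACGCGC was found in 20.4% of the single-gene windows and 21.3% of 447 windows between divergent gene pairs, but in 9.57% of 575 windows outside promoters and 3.37% of weaker candidates. GAGCGC followed the same pattern, with 20.2%, 19.02%, 10.96% and 3.86%. GAGAGA and CGTCTC ran the other way between the classes of peaks. GAGAGA was found in 25.21% of single-gene windows, 18.3% of divergent ones and 42.4% of those outside promoters, and CGTCTC in 19.5%, 12.1% and 27.5%. The single-gene windows lay between the divergent and the non-promoter ones for both words. None of these differences was tested.

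Because the weaker candidates were poorer in GC, the words were also counted only in windows whose GC content lay between the quartiles of the single-gene peaks, 42.6% and 50.5%, a choice made after the shares were seen. That left 365 single-gene windows and 1136 weaker ones. ACGCGC was then found in 20.5% of the first and 4.84% of the second, and GAGCGC in 20.5% and 5.28%. GAGAGA stood at 26.6% against 20.4%, and CGTCTC at 17.5% against 14.5%. Within this GC range the gaps between single-gene peaks and weaker candidates in GAGAGA and CGTCTC were smaller than over all windows, while those in ACGCGC and GAGCGC were nearly as large as before.

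Among 11 motifs chosen by name, TTTGAA or TTCGAA, the cell cycle homology region recognised by the DREAM complex, was the most frequent, in 199 windows (27.9%, interval 24.6 to 31.3). In all promoters it was found in 34.8%. GCGTCTC, which contains CGTCTC, was found in 88 windows (12.3%, interval 10.003 to 14.96), against 1.24% of all promoters and 4.05% of weaker candidates. Among the other classes of peaks it was found in 6.94% of divergent-pair windows and 19.5% of windows outside promoters. TTCCCGC, the core recognised by E2F factors, was found in 35 windows (4.90%), against 1.21% of all promoters and 2.101% of weaker candidates. The GC box GGGCGG was found in 5.60% of windows against 2.13% of all promoters, and the E-box CACGTG in 2.94% against 1.61%. Motifs made mostly of A and T were scarcer under the peaks than in promoters at large. TATAAA was found in 3.64% against 13.2%, TGATAA in 1.40% against 10.8%, TTTTTT in 24.4% against 46.0%, and TTTCAG in 6.44% against 18.1%. The heat shock element TTCNNGAA was found in 2.52% against 6.83%. All were read on both strands, and a match is only a run of letters.

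GC content was sharply raised at the summits and low beside them. The median over the same windows was 46.5% for the single-gene peaks, 45.5% for divergent pairs, 48.5% outside promoters, 37.6% for weaker candidates and 33.7% in all promoters. In bins of 20 bp the single-gene peaks reached a mean of 50.7% just upstream of the summit. It fell to 32.3% at 140 to 160 bp upstream and to 32.01% at 100 to 120 bp downstream, below the 35.6% found at 480 to 500 bp upstream. Divergent-pair peaks had the same central level, at 50.8%, with deeper flanks, at 28.99% from 120 to 140 bp upstream and 28.5% from 120 to 140 bp downstream. Outside promoters the centre was alike, at 50.1%, but GC content was still 40.4% at 120 to 140 bp upstream, with no dip. The profile of weaker candidates was nearly flat, between 38.1% just downstream of the summit and 34.04% at 320 to 340 bp upstream.

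**Figure D1:**
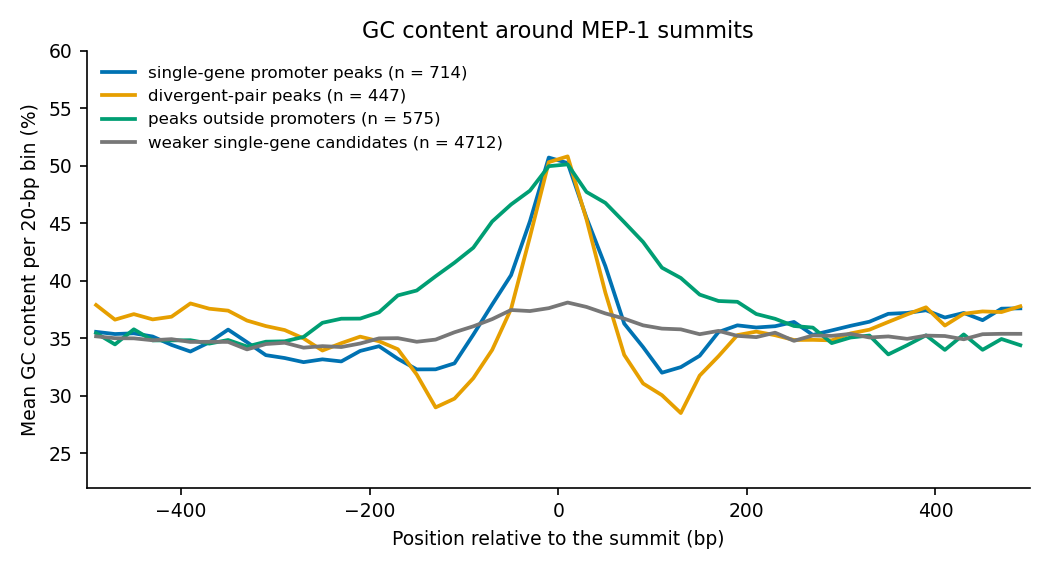
Mean GC content in 20-bp bins (percent, vertical axis from 22) against position relative to the summit, for the 4 sets of regions; positions run along the strand of the gene for the single-gene peaks and the weaker candidates. The single-gene and divergent-pair peaks share a narrow centre with low flanks, the peaks outside promoters have a broad one, and the weaker candidates reach 38.1% at most.

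The signal value, the peak caller's strength for a region, ranged over the 714 peaks from 34.2 to 158, with a median of 50.9 and quartiles of 41.1 and 65.1. It was 54.9 at the median of divergent-pair peaks and 46.4 outside promoters. Values from the pooled list, from replicate 1 and from replicate 2 are each on their own scale, so ranks within a list are given beside them. The strongest peak lay 596 bp upstream of egg-5, which encodes an inactive phosphatase needed for the passage from oocyte to embryo, at chrI:4172017-4172352. Its signal was 158 in the pooled list, 63.7 in replicate 1 and 89.4 in replicate 2, which made it the 6th region of replicate 1 and the 178th of replicate 2. It was the only one of the 15 strongest to stand in the first 50 of a replicate. Next came cbp-1, which encodes the CBP/p300 histone acetyltransferase. Its peak, 890 bp upstream at chrIII:9765451-9765786, had a signal of 119.8 in the pooled list, 27.2 in replicate 1 and 95.1 in replicate 2. It ranked 156th in replicate 1 and 146th in replicate 2, and its worse rank was better than that of any other of the 714. The peak 236 bp upstream of imb-3, an importin of the nuclear transport machinery, also stood at nearly the same rank in both, with 114.5 in the pooled list, 26.1 in replicate 1 (rank 179) and 88.1 in replicate 2 (rank 184).

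Other peaks among the strongest stood higher in the order of 1 replicate than in that of the other. The peak 177 bp upstream of chmp-7, a relative of the ESCRT membrane-cutting proteins that works at the nuclear envelope, stood at 114.2 in the pooled list, with rank 57 in replicate 1 and 230 in replicate 2. The peak 398 bp upstream of spas-1, the worm spastin, a microtubule-severing ATPase, stood at 110.1 with ranks 62 and 274. Both were higher in the order of replicate 1, yet both were among the 10 best placed in both replicates. The reverse held for cdk-7, the kinase of the general transcription factor TFIIH, whose summit lay 6 bp downstream of the 5′ end in its 5′ untranslated region. Its signal was 108.3 in the pooled list and 100.8 in replicate 2, where it ranked 118th, but 6.93 in replicate 1, where it ranked 3308th. The ribosomal protein gene rpl-14 (112.6, ranks 677 and 143) and the pre-mRNA cleavage factor gene cpsf-1 (109.4, ranks 490 and 179) leaned the same way. The remaining 7 of the 15 were ndx-6, lias-1, ufd-3, sqv-8, F54D10.5, pqn-70 and F08G2.5, at 100.6 to 104.9, for a nudix hydrolase, mitochondrial lipoyl synthase, a ubiquitin-pathway cofactor, a glycosyltransferase and 3 proteins without a well-known role. Among them ufd-3 (ranks 162 and 295), sqv-8 (209 and 232) and F08G2.5 (312 and 221) were also among the 10 best placed in both replicates, which K05C4.7 (240 and 314) and smr-1 (218 and 332) completed.

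Over all 714 peaks, 601 (84.2%, interval 81.3 to 86.8) had a summit within 100 bp in the candidate lists of both replicates. A match was found for 611 (85.6%) in replicate 1 and 700 (98.04%) in replicate 2. These candidate lists include background, so a match can be a weak region. Within the first 2404 ranks, the size of the thresholded set, 406 (56.9%) were found in replicate 1 and 633 (88.7%) in replicate 2. Only 345 (48.3%) were within them in both. The pooled list holds the reads of both replicates, so these shares describe where the signal came from and are no independent repeat. The share matched in both was lower where the pooled signal was lower, from 92.2% of the strongest of 4 equal groups by signal, through 88.2% and 82.6%, to 73.7% of the weakest. Among the matched peaks only, the median rank was 1523 in replicate 1 (611 peaks) and 1303.5 in replicate 2 (700 peaks). The upper quartile was 3542 and 1844, in lists of 25216 and 30000 regions. Divergent-pair peaks were matched in both replicates in 87.02%, peaks outside promoters in 79.0% and weaker candidates in 15.98%. The order of the matched peaks in the replicates was only loosely related, with Spearman's rho of 0.14 over 601 peaks that share 2 libraries. These peaks were chosen by a pooled signal that contains both replicates, and the effect of that choice on rho was not tested. The number of reads behind each list is unknown, so its part in these differences was not tested.

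**Figure D2:**
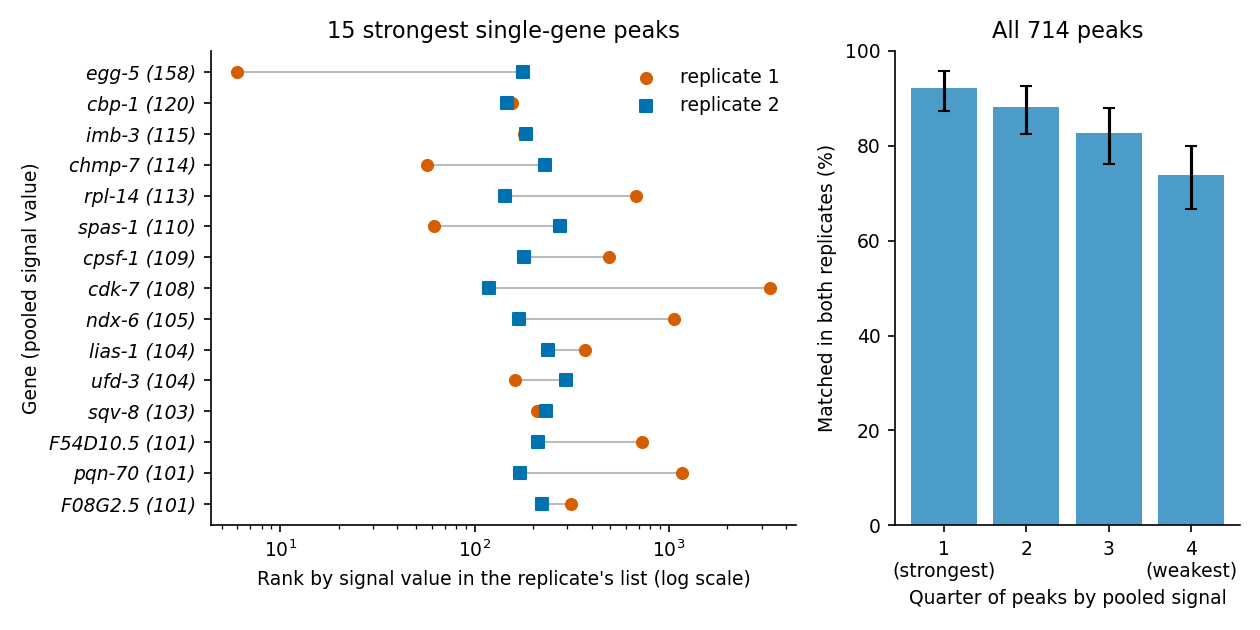
Left, the rank of the 15 strongest single-gene peaks in the list of replicate 1 (circles) and replicate 2 (squares), on a log scale with 1 the strongest, each gene with its pooled signal value; cdk-7 is 3308th in replicate 1 and 118th in replicate 2. Right, the share of all 714 peaks matched in both replicates in 4 equal groups by pooled signal, with exact 95% intervals, from 92.2% to 73.7%.

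Among the peaks not matched in both, 99 were matched in replicate 2 only, 10 in replicate 1 only and 4 in neither. Some of them do have a replicate region nearby, since a limit of 250 bp in place of 100 bp matched 93.6% of peaks in both. Those without a summit within 100 bp in replicate 1 alone had a median signal of 43.1 and reached 91.6 at set-4, which encodes a histone H4 lysine methyltransferase. That peak, 315 bp upstream, ranked 194th in replicate 2 with a signal of 86.9. The mitochondrial ribosomal protein gene mrpl-15 was next, at 83.7 in the pooled list and 81.0 in replicate 2. Of those without a summit within 100 bp in replicate 2 alone the strongest was at F48A11.4, with 90.2 in the pooled list and rank 203 in replicate 1. The 4 matched in neither were rad-51, the recombinase of DNA repair, at 63.7, T24C4.2 at 36.4, the microtubule-binding cls-2 at 35.9 and daf-15, the worm Raptor, at 34.2. These genes were named after their values were seen.

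Summits gathered a short way upstream of the gene. The median position was 229 bp upstream, and 671 of 714 summits (94.0%, interval 92.0 to 95.6) lay upstream of the 5′ end. The stretch more than 100 and up to 300 bp upstream held 315 summits (44.1%), against 20.8% of weaker candidates. By contrast the stretch more than 500 bp upstream held 130 (18.2%, against 37.5%), and 43 (6.02%, against 16.2%) lay at or downstream of the 5′ end. The nearest 100 bp upstream held 85 (11.9%), close to the 11.2% of the weaker ones. Those at or downstream included cdk-7, the linker histone gene hil-2, whose summit was exactly at the 5′ end, and mrpl-47 at 3 bp downstream. The set against which these shares are read was chosen by the same window, and the differences were not tested. By annotation, 600 summits were intergenic, 53 were in an intron of another gene, 32 in the 5′ untranslated region of the gene itself, 12 in a 3′ and 7 in a 5′ untranslated region of another gene, 5 in the gene's own coding sequence and 5 in its intron. Annotated 5′ ends were taken as they stand, and many worm transcripts are trimmed by trans-splicing, so true start sites can lie farther upstream.

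**Figure D3:**
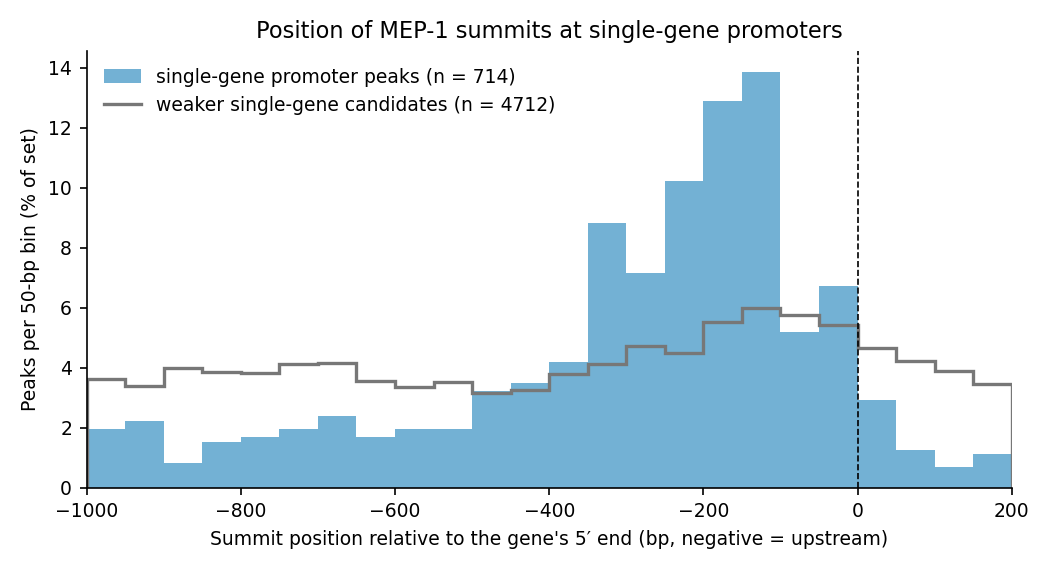
Share of summits per 50-bp bin (percent of each set) against their position relative to the gene's 5′ end (bp, negative upstream, dashed line at the 5′ end), for the 714 single-gene peaks (filled) and 4712 weaker candidates (grey line). The peaks crowd from 350 to 100 bp upstream, where the highest bin holds 13.9% of them, while the weaker candidates are spread over the window.

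The share of GAGAGA varied with position. The word was found in 63 of the 315 windows (20%) more than 100 and up to 300 bp upstream. In the nearest 100 bp upstream it was found in 24.7% of 85 windows. From there, 24.8% of the 141 windows more than 300 and up to 500 bp upstream held it. The share was 35.4% (46 of 130) more than 500 bp upstream and 34.9% (15 of 43) at or downstream of the 5′ end. Median signal changed little over these bins, at 52.9, 49.2, 48.2, 50.4 and 45.9 in that order. Median GC content was 46.5%, 45.5%, 46.5%, 48.5% and 45.5%. With signal, GC content went from a median of 48.5% in the strongest of the 4 groups to 44.6% in the weakest, while GAGAGA stayed between 22.9% and 26.97%. These are descriptions over peaks and were not tested.

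The 714 peaks belonged to 707 genes, which is 4.1% of the 17242 autosomal protein-coding genes. Counting every kind of peak, 11.6% of these genes had a summit of the thresholded set in their promoter window. The share with a single-gene peak was highest on chromosome I, at 6.15% (interval 5.30 to 7.09), and chromosome III, at 5.72%, and lowest on chromosome V, at 2.40% (interval 2.00 to 2.87). It was 4.55% in the central parts, from 25% to 75% of a chromosome's length, and 3.53% in the arms. Genes with such a peak were longer than autosomal genes at large, with a median of 2795 bp against 1964 bp, but close to the genes of the weaker candidates, at 2656 bp. More than 1 annotated start was present in 39.3% of them, against 26.4% of all genes and 36.2% of the genes of weaker candidates. The gene next upstream was on the same strand for 60.7%, against 53.5% of all genes, but the rule removes promoters with a close divergent neighbour. Among the genes of the weaker candidates, chosen by the same rule, this was 63.02%. Genetic names of the letters-and-number form were carried by 70.9% of the genes, against 55.4% of all and 58.8% of those of weaker candidates.

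Several lists of genes that every dividing cell uses, such as nuclear transport and replication, had shares above the background. Each of 31 gene lists is given below as the share of its autosomal members with a single-gene peak, to be read against 4.1%, and in places with any promoter peak, against 11.6%. No list was tested, and the intervals cover counting error over genes only.

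Nuclear transport held 11 of 40 genes (27.5%, interval 14.6 to 43.9), and 26 of the 40 had some promoter peak. Besides imb-3, these included npp-19, which encodes the nucleoporin Nup35, with its summit 200 bp upstream. Its signal was 88.7 in the pooled list, 31.1 in replicate 1 (rank 92) and 55.5 in replicate 2 (rank 707), so it stood higher in replicate 1. The peak at npp-13, another nucleoporin gene, was at 64.3, with ranks 507 and 1247. The list's other members with a peak were npp-1, ima-3, npp-22, imb-2, npp-20, ran-4, npp-18 and npp-23.

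Replication and the cell cycle held 11 of 58 genes (18.97%, interval 9.87 to 31.4). The strongest was pcn-1, for the sliding clamp PCNA, 267 bp upstream at chrIV:4049547-4049882, with 95.4 in the pooled list, 22.9 in replicate 1 (rank 263) and 68.6 in replicate 2 (rank 397). The spindle checkpoint gene mdf-1 was at 83.6 (ranks 852 and 330), and wee-1.3, for the inhibitory kinase of the mitotic cyclin-dependent kinase, at 73.0 (ranks 1698 and 461). The replication licensing genes mcm-4 (66.2), mcm-5 (64.7) and cdt-1 (58.5) were also in the list, as were psf-3, rfc-2, plk-1, cki-2 and mcm-10.

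The chromatin lists included regulators known to act with or beside MEP-1. In the DREAM and synMuv list, genes whose loss turns on germline genes or vulval fates in somatic cells, 4 of 26 had a single-gene peak (15.4%, interval 4.36 to 34.9). Their signal was high, with a list median of 94.0 against 50.9 over all peaks. The zinc-finger gene lin-13 stood at 97.9 in the pooled list, 28.4 in replicate 1 (rank 127) and 69.4 in replicate 2 (rank 381), with its summit 815 bp upstream. The DREAM subunit gene lin-9 was at 95.6, with rank 1224 in replicate 1 and 212 in replicate 2. The synMuv gene lin-36, whose window is printed above, was at 92.4, with 23.7 in replicate 1 (rank 242) and 67.0 in replicate 2 (rank 426). The E2F partner gene dpl-1 was at 67.8, and its summit lay in an intron of another gene. With any kind of promoter peak the list reached 11 of 26.

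The SUMO pathway held 2 of 9 genes (22.2%, interval 2.81 to 60.01). The peak at ubc-9, the conjugating enzyme, was 275 bp upstream, at 77.3 in the pooled list and 70.2 in replicate 2 (rank 364), but 4.33 in replicate 1 (rank 8414). The SUMO gene itself, smo-1, was at 54.8, with ranks 1674 and 1162. Dosage compensation and condensin held 4 of 12 (33.3%, interval 9.92 to 65.1). Of these, dpy-26 (57.5) and dpy-27 (53.96) encode subunits of the condensin that lowers X expression in hermaphrodites, capg-1 (43.5) encodes a subunit shared between condensins, and dpy-30 (48.2) encodes a subunit of both dosage compensation and COMPASS. The dpy-27 peak ranked 356th in replicate 1 and 1629th in replicate 2. Other chromatin regulators, COMPASS among them, held 6 of 31 (19.4%), led by the CoREST gene rcor-1 at 62.9, the AAA ATPase gene ruvb-2 at 62.5 and spr-2 at 57.6, with the SWI/SNF genes swsn-1 and swsn-9 and again dpy-30. None of the 10 autosomal genes of MEP-1's own complex and NuRD had a single-gene peak (interval 0 to 30.8), while 2 had a promoter peak of another kind.

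Most ribosomal protein and proteasome genes had a promoter peak, though few had a single-gene one. Over all autosomal protein-coding genes, 2007 had any promoter peak and 707 a single-gene one. Genes with a single-gene peak were thus the minority there too. Of 80 cytosolic ribosomal protein genes 69 (86.3%) had a promoter peak and 11 (13.8%, interval 7.07 to 23.3) a single-gene one of the standard width. Next to rpl-14 these were led by rps-11 at 79.7 (ranks 295 and 606) and rpl-24.2 at 75.3 (ranks 350 and 803). The product of rpl-24.2 is named a putative ribosome biogenesis protein, although the list counts it among the 11. Proteasome subunits held 6 of 33 (18.2%), with pbs-3 at 82.6 (ranks 2353 and 353), rpt-1 at 65.9 and rpn-11 at 53.0, and 23 of 33 with any promoter peak. Translation factors held 7 of 40 (17.5%), with eif-3.G at 70.9, eif-3.J at 64.9 and eef-1B.2 at 59.3. Mitochondrial ribosomal proteins held 9 of 70 (12.9%), with mrpl-15, mrpl-47 at 78.9 and mrpl-23 at 57.9. Nucleolar proteins held 2 of 15, nol-56 at 61.8 and nol-58 at 38.5, and the vacuolar ATPase 4 of 18, with vha-14 at 68.0, vha-9 at 56.0 and unc-32 at 40.0. Aminoacyl-tRNA synthetases held 3 of 32, which were kars-1 at 61.0, vars-1 at 54.6 and pars-2 at 44.3. The respiratory chain and ATP synthase held 3 of 40, which were cox-4 at 79.0, cox-6A at 67.8 and atp-4 at 43.3.

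Nuclear lists closer to the background were splicing factors with 4 of 56 (7.14%), led by snr-4 at 80.4, rsp-8 at 68.0 and lsm-5 at 44.9, and RNA polymerase, TAF and Mediator genes with 5 of 67 (7.46%), led by rpb-8 at 54.97, rpoa-1 at 45.9 and ama-1 at 44.1. With a promoter peak of any kind these shares were 48.2% and 31.3%. Chaperones held 3 of 63, all of them DnaJ genes, dnj-10 at 56.3, dnj-25 at 42.7 and dnj-5 at 38.6. A promoter peak of any kind was present at 27 of the 63 (42.9%). Histones held 3 of 77, namely the H1 genes hil-2 at 59.4 and hil-7 at 49.5 and the H3.3 gene his-72 at 52.2, none of them a replicative core histone. Of the 77, 15 (19.5%) had a promoter peak of any kind. Germ cell lists were near the background in single-gene peaks too, though not in promoter peaks of any kind, which 11 of 42 (26.2%) P granule and germ cell fate genes and 14 of 47 (29.8%) small RNA pathway genes had. With single-gene peaks the first list held 2 (4.76%), the polarity genes par-5 at 77.3 and pkc-3 at 50.5, and the second 3 (6.38%), the nuclear RNAi gene nrde-4 at 89.1, rde-12 at 43.1 and mut-16 at 38.8. The nrde-4 peak ranked 290th in replicate 1 and 443rd in replicate 2, whereas par-5 had no match in replicate 1.

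Cuticle collagen, chemoreceptor, C-type lectin and F-box genes had few single-gene peaks, with intervals wholly below 4.1%. None of 145 cuticle collagen genes had one (interval 0 to 2.51). Chemoreceptors had 1 in 1331 (0.0751%, interval to 0.418), at sre-23, C-type lectins 2 in 237 (0.844%, interval to 3.01), at clec-53 and clec-126, and F-box genes 3 in 305 (0.984%, interval to 2.85), at fbxc-33, fbxa-167 and fbxc-19. Nuclear hormone receptors had 4 in 246 (1.63%, interval 0.445 to 4.11), among them nhr-49, nhr-237 and nhr-228, and none of 32 major sperm protein genes had one (interval 0 to 10.9). Some of these were strong. The sre-23 peak, 644 bp upstream, was at 92.4 in the pooled list and ranked 89th in replicate 1 and 518th in replicate 2. Its summit also lay in, or up to 500 bp upstream of, an annotated snoRNA gene, ZK265.10. Other values were 74.3 at clec-53, 66.2 at nhr-49 and 62.7 at fbxc-33. Homeobox genes held 2 of 63, which were ceh-20 at 64.04 and ceh-74 at 43.8, and embryonic lineage transcription factors 2 of 29, the Wnt pathway genes sys-1 at 50.5 and pop-1 at 35.1. Muscle genes held 3 of 29, act-2 at 77.97, unc-112 at 63.4 and pat-4 at 36.4, and neuron and synapse genes 3 of 39, ric-3 at 42.6, tom-1 at 41.7 and snb-1 at 36.1. The intervals of the nuclear hormone receptor, major sperm protein, homeobox (0.387 to 11.0), lineage factor (0.846 to 22.8), muscle (2.19 to 27.4) and neuron (1.62 to 20.9) lists all include the background.

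**Figure D4:**
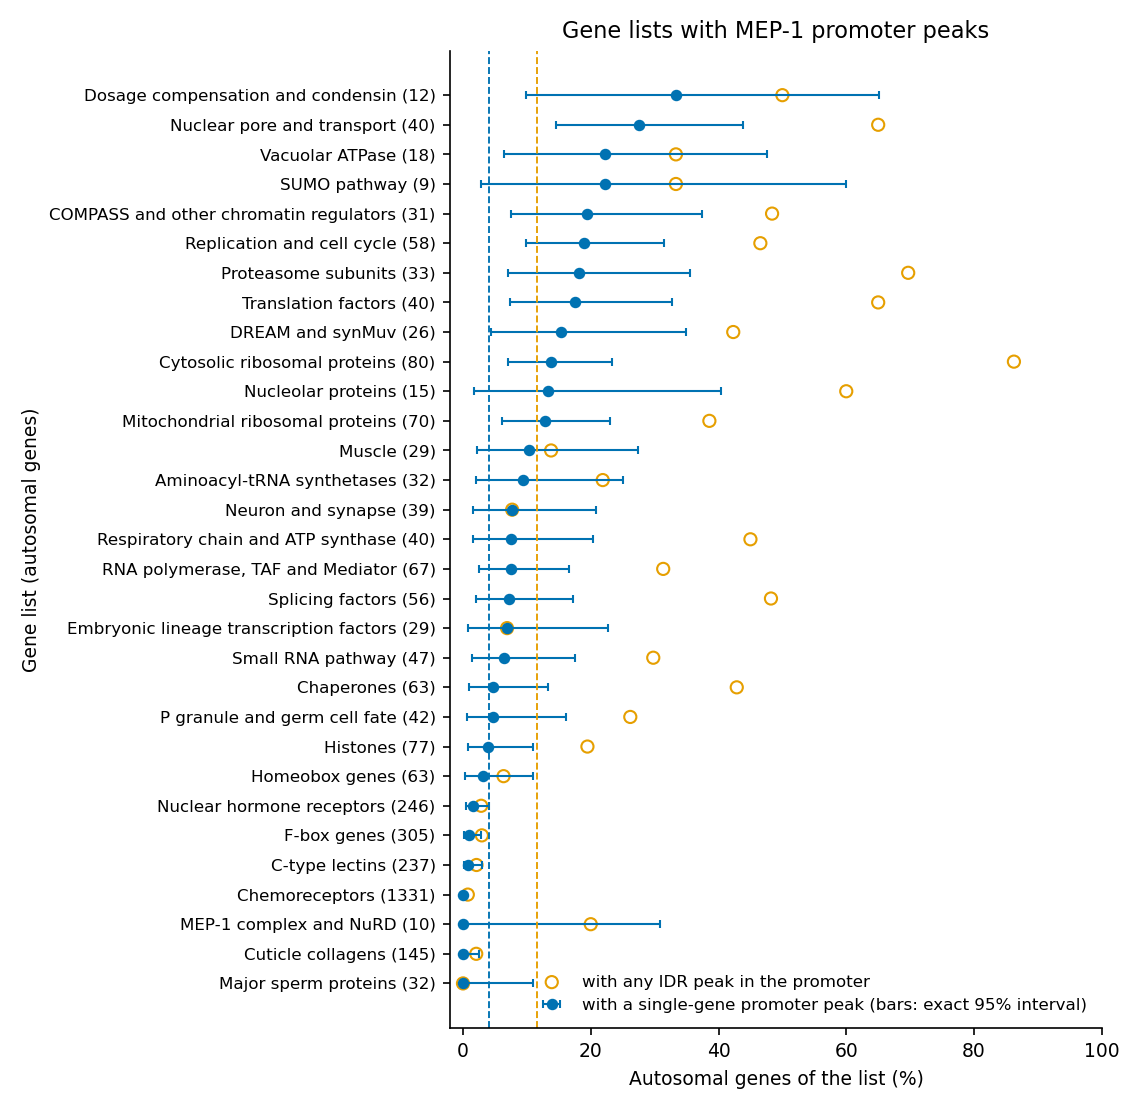
Percent of the autosomal genes of each of 31 lists (number of genes in parentheses) with a single-gene promoter peak (filled, bars are exact 95% intervals) and with any peak in the promoter (open); dashed lines mark 4.1% and 11.6% of all autosomal protein-coding genes. Nuclear pore and transport stands at 27.5% and 65.0%, cuticle collagens at 0% and 2.07%.

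Peaks just inside and just outside each limit of the rule are given here with no test. At the upstream limit the outermost peaks were at madd-2, 991 bp upstream (41.1), and K05C4.9, 986 bp upstream (36.5), and the nearest left out were at M01F1.9 (59.8) and T03F1.6 (37.9), both 1007 bp upstream. At the downstream limit hrpk-1 at 200 bp and Y39A1C.1 at 181 bp were inside, and vab-2 at 236 bp and flh-1 at 247 bp outside. The weakest peaks were at daf-15 (34.21) and eor-1 (34.25), and the strongest candidates left out were at unc-73 (34.18) and Y39G10AR.11 (34.11). Strong regions tended to be narrower than the standard width, and 76 autosomal single-gene peaks were left out for that, among them the widest at K12H4.5 (257 bp, signal 282.3) and rpl-3 (254 bp, signal 356.3). The 714 peaks are therefore not the strongest of their kind. A 2nd gene lay just beyond the window at idha-1, with the 5′ end of lmd-1 1003 bp away, and at rpb-8, with that of rars-1 1014 bp away. It lay just inside at T10E9.2 and T10E9.8, at 994 bp, and at ehbp-1 and nstp-10, at 992 bp, which were counted as pairs. For 136 of the 714 peaks (19.05%) a 2nd gene's 5′ end came within 500 bp of entering the window.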

How the data were processed

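MEP-1 ChIP-seq of 2 biological replicates was analysed from the region lists deposited on build ce11. Per the deposited file descriptions, the authors called candidate regions, background included, for each replicate and for the pooled reads, and an optimal set thresholded by the irreproducible discovery rate (IDR). A control alignment is named for replicate 1 and the pooled list but not for the replicate 2 list. No source used here names the aligner, the peak caller or the IDR threshold. Each region carries the deposited signal value, whose scale is not stated, a −log10 q-value as deposited by the authors, which was not used for ranking because the peaks share its ceiling, and a summit offset. The IDR set equals the 2404 strongest pooled regions. No list gives read numbers, so depth is unknown, and exact Clopper-Pearson intervals cover counting error over peaks or genes only.

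Summits were assigned with Ensembl release 115 genes, sequences were read from the RefSeq WBcel235 genome, which is ce11, and product names came from RefSeq. Replicate regions were matched by summits within 100 bp. All 2080 words of 6 bases were counted in windows reaching 50 bp to either side of the summit, on both strands. With 1 group no test over samples exists, and peaks and genes are not replicates, so no p-value is given. Position assignment, motif search and matching were tested on simulated data and returned the planted answers. Genes were named by a rule: the 15 strongest peaks, the 10 with the best worse rank in both replicates, up to 3 per list, those at the limits, and genes with 3 or more peaks. Other list members are named only to complete a list. Members, lists and rules were chosen with earlier results of these data known. Alternatives changed the window, the 5′ end, width, strength, replicate, match distance and sequence window. The ce10 lists were not used. Python 3.11.15, pandas 2.3.3, numpy 2.4.6, scipy 1.17.1 and matplotlib 3.10.9 were used.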

Additional observations from a re-analysis of the deposited data

How the results depend on the processing

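Of 55 alternatives over 7 values, 34 stayed within the counting interval of the reported value (for the number of peaks, within 1.5 times) and 21 moved out of it. With the window from 2000 bp upstream to 500 bp downstream, 3.76% of genes had a peak, 91.9% of summits were upstream, the median position was -311 bp, 81.0% of peaks were matched in both replicates and 24.5% held TTTGAA or TTCGAA. With 500 bp upstream to 100 bp downstream the median position was -182.5 bp. Peaks of any width reached 4.54% of genes. The stronger IDR peaks, cut at the median signal of the set, gave 326 peaks at 1.88% of genes, 89.9% of them matched in both replicates, with a median GC content of 48.5%. Summits within 50 bp were matched in 59.2% and within 250 bp in 93.6%. In windows reaching 25 bp and 100 bp to either side of the summit the median GC content was 49.02% and 40.8%, and the motif share 9.52% and 48.5%, as the longer window by its construction holds more matches. With the strongest regions of a single replicate in place of the IDR set, the number of peaks was 705 to 719, the share of genes 4.03% to 4.04%, the share upstream 90.5% to 94.9%, the median position -243 to -233 bp, the share matched 77.9% to 78.3%, the median GC content 44.6% to 46.5% and the motif share 26.8% to 28.1%. Similar counts do not show that the same peaks recurred in these sets. The causes of the shifts were not tested. No paired analysis was possible because there is a single group. The unknown depth, the pooled signal that contains both replicates and the annotated 5′ ends limit all values.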

Other observations

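Of the 714 peaks, 41 (5.74%, interval 4.15 to 7.71) also had their summit in, or up to 500 bp upstream of, a gene for a small structural RNA or a miRNA, so that the protein-coding gene was not the only candidate there. This share was 1.79% for divergent-pair peaks, 13.7% outside promoters and 1.21% for weaker candidates, and the differences were not tested. The RNA genes were snoRNA genes for 22 peaks, tRNA genes for 10, snRNA-class genes for 5 and miRNA genes for 4. The strongest single-gene peak was among the 41, since the egg-5 summit lay in, or up to 500 bp upstream of, sls-2.4. This gene of the SL2 class of spliced leaders is annotated as snRNA. Others by the same rule were tif-1A (93.1), T02E1.2 (92.5) and ubl-1 (71.4) with snoRNA genes, snr-4 and cox-6A with snRNA genes and hrpr-1 (70.8) with a tRNA gene. These genes were chosen after their values were seen.

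The promoter of eel-1, which encodes a large HECT-type ubiquitin ligase, was the only one with 3 peaks. Their summits lay 799, 576 and 344 bp upstream, with pooled signals of 51.7, 64.2 and 71.5, highest nearest the gene. The regions overlapped their neighbours. In replicate 1 the 3 ranked 1946th, 2797th and 1303rd, and in replicate 2 the outer pair ranked 1236th and 715th while the one nearest the gene had no match. A pair of peaks was found at ech-2, lgg-1, mog-4, K02B12.7 and F59C6.18. At lgg-1, for an autophagy protein of the Atg8 family, the distal peak 915 bp upstream was at 71.5 and the proximal one 252 bp upstream at 44.7.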
